A study of Mus musculus with 6 samples.

Results

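The Hox genes encode homeodomain transcription factors that lie in 4 clusters in the mouse genome, Hoxa, Hoxb, Hoxc and Hoxd. All 39 were found among 22349 named genes by their symbols in the authors' deposited table, 11 in Hoxa, 10 in Hoxb, 9 in Hoxc and 9 in Hoxd. They were measured on 40 probe sets, and Hoxa3, the only gene with more than 1, is given by the probe set with the higher mean. The cells were mouse mesenchymal stem cells, stromal cells that adhere to plastic when marrow is plated, kept in a commercial stem cell medium. Dense cultures were seeded with 2500000 cells and sparse cultures with 15000, and RNA was taken 1, 2 and 3 days later. Each density and day gave 1 Affymetrix array, so that there were 6 arrays, 3 dense and 3 sparse. Strain, sex, age, passage and the area of the culture vessel were not given in the sources used here. The labels call the samples independent, and all 6 sample titles carry the same tag, whose meaning is not given. Whether the 3 days of a density came from 1 isolate of cells is not given either. The p-values for density rest on how much a difference varied between days. Those for slopes rest on the scatter of arrays around straight lines over the days. Both also draw on the spread over all tested genes, and neither rests on replicate cultures of 1 day.

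Within a cluster the Hox genes are numbered from 1 to 13 along the chromosome, and genes of equal number in different clusters form a paralog group with a common ancestor. Low numbers are active towards the head of the embryo and high numbers towards the tail and the tips of the limbs. Stromal cells from adult tissues keep part of the Hox pattern of the body region they came from. Hox proteins bind DNA together with homeodomain partners of the TALE class (Pbx, Meis and Pknox). Polycomb and trithorax proteins hold the clusters silent or active, and retinoic acid is a classical inducer of low-numbered genes.

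The sequences shown are those of Hoxa5, the Hox gene that passed the density test, and of the microRNAs that lie inside the clusters. RefSeq promoter windows of build GRCm38.p6, 250 bases before to 50 after a start site, were matched to 22 of the 39 Hox genes, on 24 start sites. The bases before the Hoxa5 start (chr6:52204588-52204837, minus strand) are given 5′ to 3′ with a CCAAT box of the opposite strand in capitals. A window of 30 bases shortly after the start (chr6:52204538-52204567, minus strand) holds AGGTCA, a half-site that retinoic acid receptors can bind, also in capitals. No other AGGTCA was found from 250 bases before to 50 after the Hoxa5 start.
Hoxa5 upstream: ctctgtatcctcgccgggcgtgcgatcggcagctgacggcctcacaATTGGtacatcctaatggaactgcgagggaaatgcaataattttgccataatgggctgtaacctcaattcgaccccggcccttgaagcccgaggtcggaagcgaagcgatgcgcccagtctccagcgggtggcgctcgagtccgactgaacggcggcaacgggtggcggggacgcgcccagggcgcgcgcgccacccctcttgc
Hoxa5 start site window: agtgcacgagtttacctctagAGGTCAtca
The 300 bases of the Hoxa5 window held 29 CpG pairs. The median was 14.5 over the 24 Hox windows and 7 over 32851 RefSeq windows of that length. AGGTCA, searched on both strands, occurred in 16.3% of all windows and in 7 of the 24 Hox windows. CCAAT occurred in 37.4% of all windows and in 15 of the 24. TATAAA, TGATNNAT (a composite site of Pbx and Hox proteins) and TAATTA (a homeodomain core) were not in the Hoxa5 window, and 13.6%, 8.85% and 5.29% of all windows held them. These are matches of letters, not sites shown to be in use.

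MicroRNAs of the same seed (bases 2 to 8, in capitals) lie in different clusters. The miR-196 family, known to cut the Hoxb8 transcript, has members in Hoxa (miR-196b) and in Hoxb and Hoxc (miR-196a). The miR-10 family lies in Hoxb (miR-10a) and Hoxd (miR-10b), and miR-615 lies within Hoxc5.
miR-196a-5p: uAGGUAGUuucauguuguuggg
miR-196b-5p: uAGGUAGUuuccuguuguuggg
miR-10a-5p: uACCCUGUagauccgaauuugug
miR-10b-5p: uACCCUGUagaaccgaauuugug
miR-615-3p: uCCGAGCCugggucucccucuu
The arrays had probe sets for the genes of these microRNAs, and the mature forms were not measured. Mean log2 values were 2.57 for Mir10a, 2.44 for Mir10b, 2.80 for Mir196a-1, 2.87 for Mir196a-2 and 3.74 for Mir196b. Mir615 had log2 values of 5.99, 6.17 and 6.23 in dense and 6.49, 6.49 and 6.13 in sparse cultures on days 1, 2 and 3, with overlapping groups (limma adjusted p = 0.310).

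Which Hox genes stood above background was read from the deposited log2 values. The threshold was 3.73, the 95th percentile of the mean levels of 1336 olfactory and vomeronasal receptor genes, which stromal cells are not known to use. By this measure 25 of 39 Hox genes were above background in their mean over the 6 arrays, beside 65.6% of all named genes. Probe sets differ in affinity, so that the count shows where a signal was read and does not rank genes by amount. Of 8 caudal, ParaHox and Evx genes, relatives of the Hox clusters, 4 were above the threshold as well. Cdx1 had a mean of 6.05 and Evx2 one of 5.05. A signal above the threshold is thus not by itself evidence that a gene was in use. Of the 39 genes, 23 were above the threshold on all 6 arrays and 6 on none, beside 13540 and 6429 of 22349 named genes.

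The Hox genes above background formed long runs in Hoxa and in Hoxc. In Hoxa 10 of 11 genes were above it, with no gap from Hoxa2 to Hoxa11. In Hoxc 7 of 9 were above it, Hoxc4 to Hoxc11, and Hoxc12 and Hoxc13 were not. Hoxb had 5 of 10 (Hoxb1, Hoxb3, Hoxb4, Hoxb6 and Hoxb9) and Hoxd 3 of 9 (Hoxd8, Hoxd9 and Hoxd11). Paralog group 9 was above background in all 4 clusters, and groups 6 and 11 in the 3 clusters that have them. Groups 12 and 13 had 0 of 2 and 0 of 4 genes above it.

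A stricter line, the median of all named genes at 4.83, left 16 Hox genes (41%, beside 50% of named genes). These were the 7 genes from Hoxa4 to Hoxa11, the 7 from Hoxc4 to Hoxc11, Hoxb1 and Hoxb9, and no Hoxd gene reached it in the mean. At the 99th percentile of the receptor genes, 4.41, there were 20 of 39 Hox genes, beside 12276 of 22349 named genes. Hoxd9 was just inside at 4.42. Just above the main threshold lay Hoxa2, a hindbrain gene, with a mean of 3.81 and 4 of 6 arrays above it. Just below lay Hoxb13, a gene of the tail end, with 3.64 and 2 arrays above it.

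**Figure D1:**
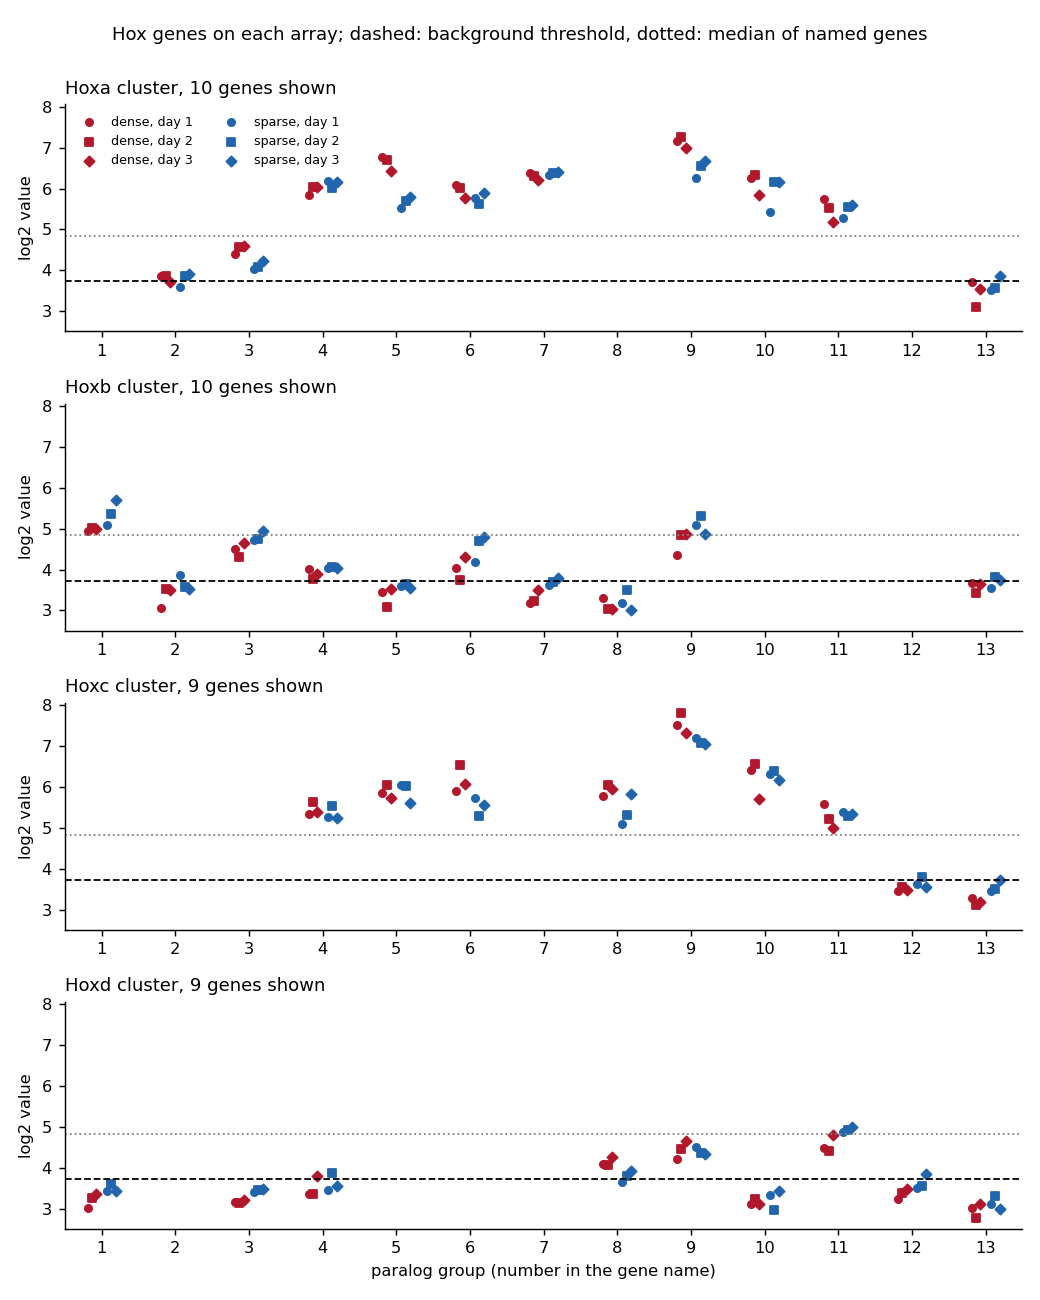
Deposited log2 value (vertical) of 38 Hox genes on each of the 6 arrays, by paralog group (horizontal) and cluster (panels), with dense arrays in red, sparse arrays in blue and days by symbol. The dashed line is the background threshold of 3.73 and the dotted line the median of named genes, 4.83. The Hoxa and Hoxc genes of groups 4 to 11 lie above the dotted line on every array.

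The cultures carried stromal markers, and most markers of other cells lay near background. All 12 stromal markers were above the threshold, with an average log2 level over the list between 8.07 and 8.28 in dense cultures and between 7.49 and 7.68 in sparse ones. Of 11 macrophage and myeloid markers 4 were above it, 3 of them on all 6 arrays, and 1 was above the median of named genes. Ptprc (CD45), at a mean of 3.17, and Itgam, at 2.96, were among those below the threshold, and they do not speak for the 4 above it. The list averaged between 3.60 and 3.64 in dense cultures and between 3.60 and 3.67 in sparse ones. Blood progenitors also use Hox genes. Of their 4 measured markers 2 were above the threshold, both on all 6 arrays, with Flt3 above it and Kit below it. The 4 markers averaged between 3.72 and 3.80 in dense cultures and between 3.92 and 4.0005 in sparse ones. Endothelial markers were above it for 1 of 5 genes, lymphoid for 1 of 4, and erythroid and megakaryocyte for 1 of 4. In bulk RNA, fewer cells of a type and less RNA per cell cannot be told apart.

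Of the Hox genes, Hoxa5 alone passed the test of dense against sparse cultures. Hoxa5, which patterns the neck and upper thorax and the lung, had log2 values of 6.77, 6.70 and 6.42 in dense and 5.52, 5.70 and 5.79 in sparse cultures on days 1, 2 and 3. Every dense array was above every sparse array. Hoxa5 was 1.94-fold higher in dense cultures, or by 0.96 ± 0.15 on the log2 scale (SE, n = 3 per density, limma adjusted p = 0.0238). The difference was 1.25 on day 1, 1.005 on day 2 and 0.62 on day 3. With day 2 left out it was 0.93 and did not pass (limma adjusted p = 0.225). The stromal marker average was higher in dense arrays as well, with 6 of 12 markers called higher and 2 lower (Alcam at −1.85 and Cd44 at −1.09), and its part in the Hoxa5 difference was not tested.

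That 1 call was among 35 tested Hox genes, whereas 11.2% of all 16762 tested genes passed, 8.26% higher and 2.9% lower in dense cultures. The other 4 Hox genes, Hoxb8, Hoxd3, Hoxd10 and Hoxd13, had means under the filter on low values (3.32). At an unadjusted p under 0.05 there were 13 of 35 Hox genes, 7 higher and 6 lower, or 37.1%, against 34.3% of all tested genes. The share of Hox genes was thus near that of the array as a whole. By the p-values of the authors' deposited table, 11 of 39 Hox genes were under 0.05, 7 higher and 4 lower, beside 23.4% of named genes.

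RefSeq places Hoxa4, Hoxa5 and Hoxa6 inside the span of Hoxa3, and the long noncoding gene Hoxaas3 overlaps Hoxa5 and Hoxa6. Whether a probe set reads more than 1 of these transcripts is not given in the sources used here. Hoxa3, a gene of the throat and thymus, had 4.40, 4.58 and 4.61 in dense and 4.03, 4.08 and 4.23 in sparse cultures, with every dense array higher. Its difference of 0.42 ± 0.11 did not pass (limma adjusted p = 0.0690). The other Hoxa3 probe set differed by 0.46, but it fell over the days in dense cultures where the first rose. It had 4.53, 4.53 and 4.10 in dense and 3.92, 3.96 and 3.90 in sparse cultures. Hoxa4 and Hoxa6, in the same span, had differences of −0.15 and 0.19 (adjusted p = 0.425 and 0.388), with overlapping groups.

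No other Hoxa gene passed. Hoxa9, a regulator of blood progenitors, had 7.17, 7.25 and 6.98 in dense and 6.25, 6.56 and 6.68 in sparse cultures. The groups did not overlap, and the difference was 0.64 ± 0.16 (limma adjusted p = 0.0555). Without the day 3 arrays, where 15% of all tested genes passed, Hoxa9 passed at 0.81 (adjusted p = 0.0145), and so it did without the day as a block (adjusted p = 0.0339). The 95% intervals ran from −0.31 to 0.37 for Hoxa2, −0.37 to 0.23 for Hoxa7, −0.34 to 0.81 for Hoxa10 and −0.46 to 0.48 for Hoxa11.

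In Hoxc the genes in the middle of the cluster had the largest differences, and 0 of 9 passed limma's test. An unadjusted p under 0.05 was read for 4 of the 9, beside 34.3% of all tested genes. Hoxc6, a gene of thoracic levels, had 5.89, 6.52 and 6.07 in dense and 5.72, 5.29 and 5.57 in sparse cultures. Its groups did not overlap and were 1.24 apart on day 2, with a mean difference of 0.64 ± 0.22 (adjusted p = 0.107). Hoxc8, which acts at thoracic levels and in motor neurons, had 5.78, 6.06 and 5.94 in dense and 5.10, 5.32 and 5.83 in sparse cultures. The groups overlapped through sparse day 3, at a difference of 0.51 ± 0.16 (adjusted p = 0.0957), and without the day 3 arrays Hoxc8 passed at 0.71 (adjusted p = 0.0217). Hoxc9, its thoracic neighbour, had 7.51, 7.80 and 7.31 in dense and 7.20, 7.07 and 7.06 in sparse cultures, without overlap (0.44 ± 0.14, adjusted p = 0.100). Differences of Hoxc4, Hoxc5, Hoxc10 and Hoxc11 ran from −0.08 to 0.10, with overlapping groups. Hoxc13, under the background threshold, was the other gene at an unadjusted p under 0.05 and had the opposite sign, −0.38 (adjusted p = 0.109), with every dense array lower.

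In Hoxb 10 of 10 genes had lower means in dense cultures, also under the 3 other scalings of the arrays. Of 9 tested 0 passed limma's test, and 4 had an unadjusted p under 0.05, beside 34.3% of all tested genes. Hoxb6, a gene of thoracic levels, had 4.03, 3.74 and 4.32 in dense and 4.20, 4.69 and 4.79 in sparse cultures, with overlap between dense day 3 and sparse day 1 (−0.53 ± 0.18, adjusted p = 0.102). Hoxb1, a hindbrain gene, had 4.94, 5.02 and 4.999 in dense and 5.08, 5.35 and 5.70 in sparse cultures, without overlap (−0.39 ± 0.15, adjusted p = 0.134). Hoxb3 and Hoxb4 had −0.31 and −0.16, both with every dense array lower. Hoxb9, a thoracic gene, had 4.35, 4.85 and 4.88 in dense and 5.08, 5.32 and 4.88 in sparse cultures (−0.40 ± 0.17, adjusted p = 0.159). Its densities met on day 3, and without that day it passed at −0.60 (adjusted p = 0.0438). Hoxb7, under the background threshold with a mean of 3.51, had −0.41 ± 0.12 (adjusted p = 0.0747) and passed only when limma's variance was fitted with a trend and robustly (adjusted p = 0.0450).

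The direction in Hoxb stands beside that of dim genes at large. The median difference was −0.30 over the 10 Hoxb genes and −0.06 over all named genes and over the receptor genes alike. Lower means in dense cultures were read for 60.5% of named genes, 70.8% of receptor genes and 78% of named genes at or below the threshold. All 14 Hox genes at or below the threshold were lower too. The 5 Hoxb genes above background had a median of −0.39, against −0.01 over named genes above background. The sets differ in level, as 2 of these 5 Hoxb genes were above the median of named genes, beside 76.2% of the named genes above background. The blood progenitor markers also averaged lower in dense arrays, and their part in the Hoxb values was not tested.

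In Hoxd the genes above background differed both ways, and limma called 0 of 6 tested. An unadjusted p under 0.05 was read for 2 of the 6, beside 34.3% of all tested genes. Hoxd8, a gene of the trunk, had 4.09, 4.07 and 4.27 in dense and 3.66, 3.79 and 3.91 in sparse cultures, with every dense array higher (0.36 ± 0.11, limma adjusted p = 0.0962). Hoxd11, which with Hoxa11 shapes the forearm bones, had 4.48, 4.40 and 4.80 in dense and 4.87, 4.92 and 5.01 in sparse cultures, with every dense array lower (−0.37 ± 0.12, adjusted p = 0.102). Hoxd9 had 0.04 with a 95% interval from −0.33 to 0.42. Over all 39 Hox genes, 7 had every dense array above every sparse array and 13 had every dense array below. These are 17.9% and 33.3%, beside 16.2% and 18.6% of named genes.

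**Figure D2:**
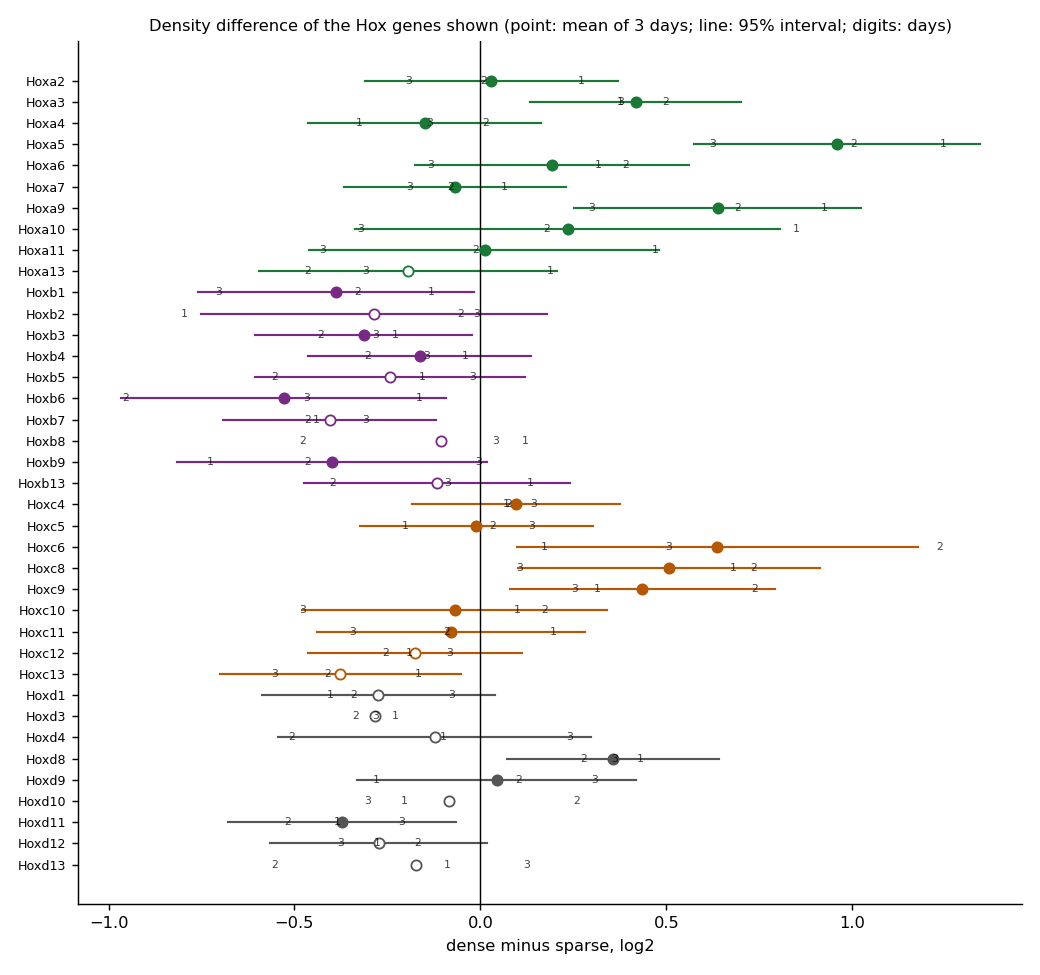
Dense minus sparse log2 difference (horizontal) of 38 Hox genes (vertical), coloured by cluster. Points are means over 3 days, filled where the gene was above background, lines are limma 95% intervals of the tested genes, and the digits 1, 2 and 3 mark single days. Hoxa5, at 0.96, is the point farthest from 0, and all 10 Hoxb points lie below 0.

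The course over the days was read next. For a common slope in both densities limma called 0 of 35 Hox genes and 0% of all tested genes, and 1 Hox gene had an unadjusted p under 0.05, against 15.2% of all tested genes. That gene was Hoxc8, with a slope of 0.22 per day (adjusted p = 0.319). Slopes of the tested Hox genes ran from −0.21 for Hoxc10 to 0.22 for Hoxc8. Within dense cultures limma called 0 of 35, beside 4.34% of all tested genes, with the smallest adjusted p at 0.131 for Hoxc11 (−0.29 per day). Within sparse cultures it called 0 of 35, beside 0.0776%, with the smallest adjusted p at 0.180 for Hoxc8 (0.37 per day).

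Most Hoxa genes had opposite slopes in the 2 densities, and none passed the test of the difference of slopes. Of the 11 Hoxa genes 9 had negative slopes in dense and 10 positive slopes in sparse cultures, beside 45.8% and 48% of all tested genes. On day 1, 10 of 11 Hoxa genes were higher in dense cultures, with a median difference of 0.38. On day 3, 4 of 11 were, with a median of −0.14. Over all named genes the median was −0.06 on day 1 and −0.03 on day 3.

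Hoxa10 and Hoxa11 crossed between the densities. Hoxa10, which patterns the lumbar spine and the uterus, had 6.27, 6.34 and 5.83 in dense and 5.42, 6.16 and 6.15 in sparse cultures. Its difference was 0.85 on day 1 and −0.32 on day 3. Hoxa11 had 5.75, 5.53 and 5.18 in dense and 5.28, 5.54 and 5.61 in sparse cultures, with differences of 0.47 and −0.42 on these days. The slope in dense minus that in sparse cultures was −0.59 ± 0.19 per day for Hoxa10 (limma adjusted p = 0.195) and −0.45 ± 0.13 for Hoxa11 (adjusted p = 0.155). Without the dense day 2 array both passed (adjusted p = 0.0167 and 0.0434), and without the dense day 1 array Hoxa10 and Hoxc10 did (adjusted p = 0.0310 and 0.0320). These are 2 of 35 Hox genes in each fit, in which 10.4% and 7.37% of all tested genes passed. Without the dense day 3 array 0 Hox genes passed, beside 2.61% of all tested genes. With any 1 sparse array left out 0 Hox genes passed, beside 0%. With 1 dense array left out, the dense slope is a line through 2 points, and the residual spread comes from the sparse arrays alone.

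For the difference of slopes limma called 0 of 35 Hox genes, beside 0.191% of all tested genes. At an unadjusted p under 0.05 there were 4 of 35, or 11.4%, against 16.2% of all tested genes. They were Hoxa5 (−0.31 per day), Hoxa10, Hoxa11 and Hoxb2 (0.39 per day), of which Hoxb2 lay under the background threshold. In Hoxa2, Hoxa5, Hoxa7 and Hoxa11 each day was lower than the last in dense and higher in sparse cultures, a pattern picked after the values were seen. It was present in 5 of 35 tested Hox genes in all and in 3.77% of all tested genes. On single days, with no test, Hoxa5 was at least 2-fold apart on days 1 and 2, Hoxc6 on day 2 and 0 Hox genes on day 3, beside 4.37%, 7.18% and 9.35% of all tested genes on days 1, 2 and 3.

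**Figure D3:**
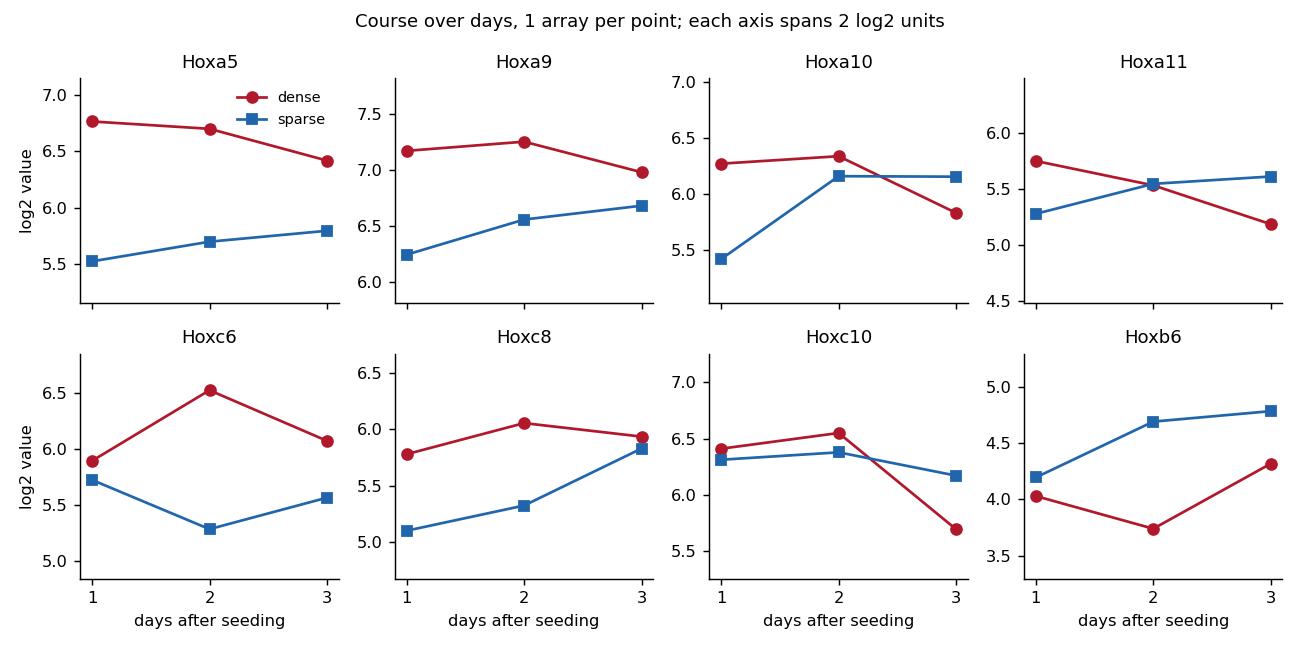
Log2 value (vertical, 2 log2 units per panel) against days after seeding (horizontal) for 8 Hox genes, with dense cultures in red, sparse cultures in blue and 1 array per point. The Hoxa5 lines approach each other without meeting, from 1.25 to 0.62 apart, and those of Hoxa10 and Hoxa11 cross.

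The TALE class, which holds the Pbx, Meis and Pknox partners of Hox proteins, was read from a list of 11 genes. The list also holds the TALE genes Tgif1 and Tgif2. Of these 4 were higher in dense cultures and 0 lower, beside 11.2% of all tested genes called, with a median difference of 0.03 against −0.05 over all tested genes. Among the 4, Pknox2 was higher (limma adjusted p = 0.0135), with all 3 sparse values under the background threshold, so that no fold is given. Meis2 was 1.54-fold higher (adjusted p = 0.0310) and Pbx2 1.44-fold (adjusted p = 0.0446). Meis1 had 0.51 and Pbx3 −0.35, and they did not pass (adjusted p = 0.0559 and 0.223).

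Of 16 tested genes of the retinoic acid pathway 4 were higher in dense cultures and 0 lower, with a median of 0.36 over those tested, beside 11.2% of all tested genes called. Dhrs3, which turns retinal back into retinol, was 8.55-fold higher (limma adjusted p = 0.00621). Crabp2, which carries retinoic acid to its receptors, was 5.01-fold higher (adjusted p = 0.0207). Aldh1a2, which makes retinoic acid, was 3.22-fold higher (adjusted p = 0.0347) and the receptor gene Rara 1.46-fold (adjusted p = 0.0403). Rarb, a receptor gene that retinoic acid induces, had 6.71, 6.53 and 5.44 in dense and 4.53, 4.76 and 5.48 in sparse cultures, with overlap (1.30, adjusted p = 0.0953). A link between these genes and Hoxa5 was not tested.

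**Figure D4:**
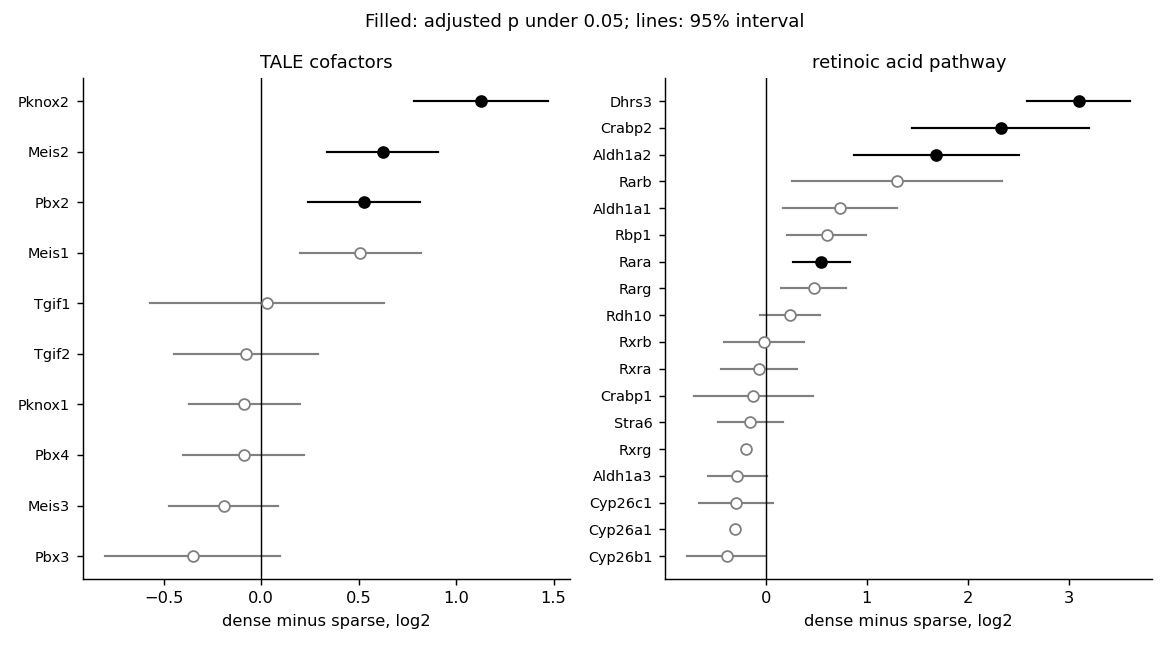
Dense minus sparse log2 difference (horizontal) of 10 TALE genes and the retinoic acid pathway genes (vertical), with limma 95% intervals for the tested genes. Filled points passed at an adjusted p under 0.05, and all of them lie above 0, with Dhrs3 farthest at 3.10.

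Calls among chromatin regulators of the clusters were about as frequent as on the array as a whole. Of 27 Polycomb genes 1 was higher and 2 were lower in dense cultures, or 11.1% beside 11.2% of all tested genes, with a median of 0.13. Jarid2, which helps a Polycomb complex to its targets, was 1.60-fold higher (limma adjusted p = 0.0269), and Phc2 and Phf19 were 1.71-fold and 1.49-fold lower (adjusted p = 0.0418 and 0.0466). Eed, a core Polycomb subunit, fell over the days in dense cultures (−0.56 per day, adjusted p = 0.0349). Phc3 had a difference of 0.64 and did not pass (adjusted p = 0.0573). Of 14 trithorax and demethylase genes 2 were higher (14.3%), Mll3 1.65-fold (adjusted p = 0.0239) and Kdm6a, which removes the Polycomb mark from histones, 1.47-fold (adjusted p = 0.0384). Mll1, a known activator of Hox genes, had 0.49 and did not pass (adjusted p = 0.0722).

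Other patterning genes were called in both directions, beside 11.2% of all tested genes. Of 28 tested homeobox and T-box genes of limb and skeleton 4 were higher, among them Dlx5 at 2.43-fold (limma adjusted p = 0.00799), Prrx1 at 1.92-fold (adjusted p = 0.0185) and Shox2 (0.996 on the log2 scale, adjusted p = 0.0347). Dlx2 and Lmx1b, which sets the dorsal side of the limb, were 1.71-fold and 1.54-fold lower (adjusted p = 0.0307 and 0.0306). The median of that list was −0.25 over those tested. Of 7 tested caudal, ParaHox and Evx genes, relatives of the Hox clusters, limma called 0. An unadjusted p under 0.05 was read for 1 gene, beside 34.3% of all tested genes. That gene was Evx2, which lies next to Hoxd13, at −0.43 (adjusted p = 0.0878). Of 9 genes flanking the clusters 1 passed, or 11.1%, near the share of the array. Skap2, a neighbour of Hoxa, was 1.70-fold higher (adjusted p = 0.0479), and the other 8 did not pass. Calcoco1, a neighbour of Hoxc, rose over the days in dense cultures (0.62 per day, adjusted p = 0.0191).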

How the data were processed

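Total RNA of 6 samples of mouse bone marrow stromal cells was read on Affymetrix arrays, 1 per density and day. The deposited values are log2 intensities per probe set; RMA and Partek are named, with no version, in the submitters' processing notes. RMA compresses differences near background. Per the file headers, the authors' deposited table also gives a p-value and a signed fold change (a score with no values between −1 and 1) of dense against sparse. A further 6 columns of that table were not used here, and the files used hold no detection calls. Symbols came from the same table, which leaves 9639 of 35556 probe sets without one.

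For each symbol the probe set with the highest mean was taken, and 16762 of 22349 genes at or above the 25th percentile (3.32) were tested with lmFit and eBayes of limma 3.58.1 under R 4.3.3 (2-sided, Benjamini-Hochberg over all tested genes, adjusted p under 0.05). Density was fitted with the day as a factor, the trend with density, and the difference of slopes with both. Values of same-day arrays deviated from their density means with correlations of 0.127, 0.0750 and 0.0674 across genes, within the range between days (−0.150 to 0.109) or just above it. The day was kept as the labelled pairing. The steps were tested on simulated data. Precision is limited by how few arrays there are.

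The members and lists were chosen with earlier results of these data known. Every Hox gene past a test or above background is named, with those nearest the threshold, except that some genes these rules pick are not reported here or drawn. Of each list, members past the density test and some of the 4 others with the largest difference are named. Alternatives covered scaling, filter, probe sets, variance, block and left-out days. The comparison of cluster directions under 3 other scalings was chosen after seeing the data.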

Additional observations from a re-analysis of the deposited data

How the results depend on the processing

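The number of Hox genes called for dense against sparse was 1 of 35, beside 11.2% of all tested genes. It was 2 with a variance trend and robust estimation (Hoxa5 and Hoxb7), beside 11.8%. By the authors' deposited p-values it was 11 of 39 unadjusted, beside 23.4% of named genes, or 0 after adjustment. The replicate number is the day, and the day is the block. With no replicate block limma called 2 Hox genes, Hoxa5 (adjusted p = 0.00947) and Hoxa9, beside 13.2% of all tested genes. Leaving out 1 day at a time gave 0 to 4 calls: 0 without day 2, where limma called no gene at all, and Hoxa5, Hoxa9, Hoxb9 and Hoxc8 without day 3, which is 4 of 35 beside 15% of all tested genes. For the difference of slopes, leaving out 1 array gave 0 to 2 calls, beside 0% to 10.4% of all tested genes. Hoxa5 passed under renewed quantile normalization (0.80, adjusted p = 0.0351), median centring and both other filters. Above background were 16 Hox genes at the median of named genes, or 41%, beside 50% of named genes. The median difference of the Hox genes above background was 0.03, and −0.06 to 0.14 without 1 day. The causes of these shifts were not tested. Probe sets near background limit what can be read for 14 of the 39 genes.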
